A study of Caenorhabditis elegans with 50 samples.

Results

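Peroxiredoxins, thioredoxins and methionine sulfoxide reductase form a relay that passes electrons from NADPH to oxidised targets. Thioredoxin reductases use NADPH to reduce thioredoxins, and reduced thioredoxins in turn reduce peroxiredoxins, which break down hydrogen peroxide, and methionine sulfoxide reductase, which turns oxidised methionine in proteins back into methionine. In worms these enzymes are studied in stress resistance and ageing, where DAF-16, the FOXO transcription factor restrained by insulin/IGF-1 signalling, controls many protective genes. The group named here has 8 genes: msra-1, prdx-2, prdx-3, prdx-6, trx-1, trx-2, trxr-1 and trxr-2. They were taken from the deposited count table by exact gene name. Of the 8 names, 6 stand alone on an entry among 33458 gene entries, while prdx-2 and prdx-3 occur only in entries that also name other genes.

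Polyadenylated RNA of whole Caenorhabditis elegans on day 1 of adulthood was sequenced in 50 libraries, 5 for each of 10 strains. The daf-2 family has 7 strains: wild type (WT), the single mutants for the daf-2 alleles e1370 and e1368, and each allele combined with daf-16 allele mg54 or mu86. These were kept at 15 °C until the early L4 larval stage and then at 20 °C, with eggs of daf-2(e1370) laid 6 hours ahead. Both daf-2 alleles reduce the function of the insulin/IGF-1 receptor, and both daf-16 alleles are loss-of-function alleles. The glp-1 family has 3 strains, glp-1(e2141) alone and with either daf-16 allele, which spent 48 hours at 25 °C and so lacked a germline. All 3 share the glp-1 allele and the temperature. A wild type grown in the same heat was not analysed here, so levels set between families carry no test.

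Levels are given as CPM, fragment counts scaled to a library's effective size so that libraries of unlike depth can be compared, and differences as log2 values with a standard error (SE). A gene was called when its Benjamini-Hochberg adjusted p from the quasi-likelihood test of edgeR, over all entries tested, was under 0.05. The 35 libraries of the daf-2 family held 19893287 to 34247082 fragments, apart from daf-2(e1370) replicate 2 with 2367903, and the 15 of the glp-1 family held 13822794 to 23811798. The daf-16 entry averaged 105 ± 10.8 CPM (SD, n = 5) and 99.9 ± 7.6 CPM in the mg54 doubles of e1370 and e1368, against 195 to 208 CPM in WT and the daf-2 single mutants. In the mu86 doubles of daf-2 it averaged 179 and 187 CPM, so this total does not check the mu86 label. In the glp-1 family daf-16 averaged 215 CPM in the single mutant, 179 with mg54 and 475 with mu86. The 11 oogenic germline markers that have their own entries summed to 23.02 to 52.7 CPM in the glp-1 family and to 5194 to 10149 CPM in the daf-2 family. In RNA of whole animals, fewer cells of a type and less RNA per cell cannot be told apart.

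msra-1 was the member that changed most. Its entry (chromosome II, 7358698 to 7364250 on ce10) encodes the enzyme that reduces methionine sulfoxide. The transcript fell in daf-2(e1370), to less than any other strain had, and stood higher in both daf-16 doubles of that allele. WT libraries 0 to 4 held 257, 227, 343, 205 and 250.1 CPM, and daf-2(e1370) libraries held 86.3, 81.2, 32.9, 65.4 and 90.4 CPM. Every daf-2(e1370) library lay below every WT library, and the lowest one was the shallow replicate 2, where 74 fragments were counted. The means were 257 ± 52.6 and 71.2 ± 23.4 CPM (SD, n = 5), a difference of −1.77 ± 0.22, or 3.41-fold lower (edgeR adjusted p = 3.16e-07).

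The 5 libraries of daf-16(mg54);daf-2(e1370) held 277, 303, 460.5, 494 and 445 CPM of msra-1. Those of daf-16(mu86);daf-2(e1370) held 296, 294, 438, 488 and 429 CPM. Neither double overlapped daf-2(e1370), whose highest library had 90.4 CPM. daf-2(e1370) stood 5.15-fold below the mg54 double, at −2.37 ± 0.23 with a 95% interval of −2.83 to −1.90 (edgeR adjusted p = 1.24e-09). Against the mu86 double the difference was −2.36 ± 0.23, 5.13-fold lower (edgeR adjusted p = 1.28e-09). Leaving out each library in turn gave −2.47 to −2.19 in both comparisons and −1.88 to −1.61 against WT, and the call held each time. These 3 comparisons share the daf-2(e1370) libraries. The mg54 and mu86 doubles of daf-2(e1370) differed by 0.01 ± 0.21, with a 95% interval of −0.43 to 0.44.

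**Figure D1:**
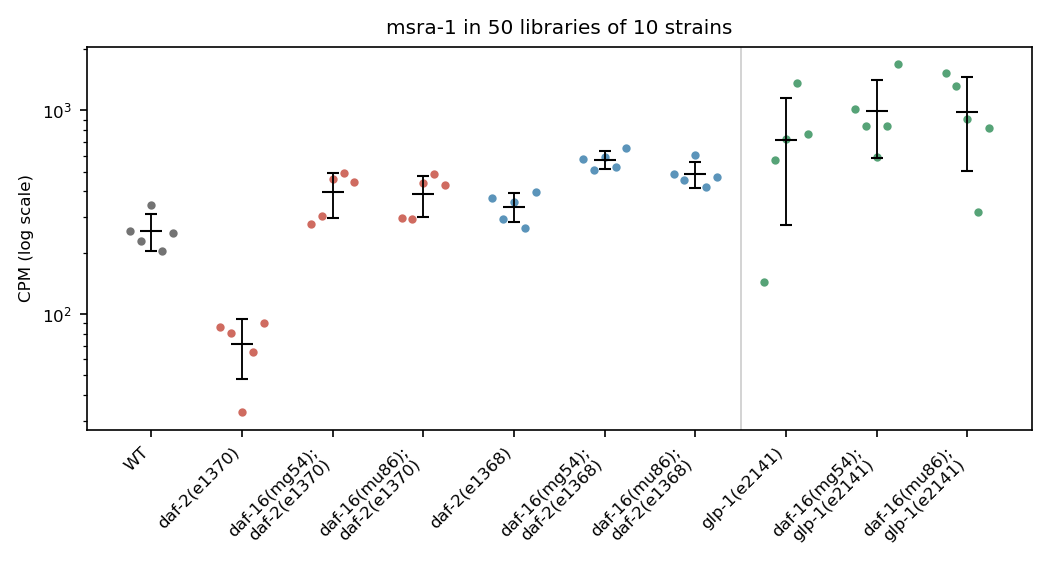
CPM of msra-1 in each of 50 libraries (log axis), by strain, with points for libraries 0 to 4 from left to right and bars for the mean and SD of 5. The 5 daf-2(e1370) points, from 32.9 to 90.4 CPM, lie below all others, and the 3 glp-1 strains (right of the line) spread from 144 to 1681 CPM.

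Within the e1370 doubles the libraries fell into sets by replicate number. The 4 libraries numbered 0 and 1 held 277 to 303 CPM of msra-1, and the 6 numbered 2, 3 and 4 held 429 to 494 CPM. The same 4 libraries stood apart in several marker lists. Their 28 major sperm protein markers summed to 59.1 to 457 CPM, against 1269 to 1769 CPM in the other 6. Body wall muscle markers summed to 435 to 830.1 against 1448 to 1591 CPM, pharyngeal markers to 8.94 to 41.4 against 56.9 to 85.1 CPM, and neuronal markers to 63.3 to 83.2 against 112 to 127.7 CPM. Oogenic markers were higher in the 4, at 9413 to 9860 CPM against 5388 to 7619.5 CPM. The part of these differences in the msra-1 level was not tested. Both sets lay above daf-2(e1370), in which the sperm markers summed to 773 to 1918 CPM.

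In the weaker allele, daf-2(e1368), msra-1 was not called below WT. Its libraries held 370.5, 294, 356, 266 and 397 CPM, a mean of 337 ± 54.8 CPM (SD, n = 5) whose range overlapped that of WT. The difference from WT was 0.38 ± 0.21 (95% interval −0.06 to 0.81, edgeR adjusted p = 0.573). The mg54 double held 575, 512, 592, 525 and 657 CPM, and every one of these lay above every daf-2(e1368) library. That difference was −0.77 ± 0.21 (edgeR adjusted p = 0.0421). It was near the threshold: the call was lost in 9 of 10 fits that each left out a library (adjusted p from 0.0368 to 0.14) and without the filter on low counts (adjusted p = 0.066). The mu86 double held 489, 456, 602, 419 and 470.5 CPM, also above every daf-2(e1368) library, and the difference of −0.55 ± 0.21 did not pass (edgeR adjusted p = 0.198; 95% interval −0.99 to −0.11).

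The alleles themselves were compared directly. msra-1 was 4.42-fold lower in daf-2(e1370) than in daf-2(e1368), a difference of −2.15 ± 0.22 (edgeR adjusted p = 3.56e-08). The daf-16 effect, taken by subtracting the mean of both doubles from the single mutant, was more negative in e1370 than in e1368 by −1.70 ± 0.27 (edgeR adjusted p = 8.67e-05), and by −1.52 to −1.79 without any 1 library.

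The daf-16 doubles of e1368 stood above WT in msra-1. Their mean exceeded WT by 1.04 ± 0.19, 2.05-fold (edgeR adjusted p = 0.00481), and no library of those doubles, from 419 to 657 CPM, overlapped the WT range of 205 to 343 CPM. In a fit of all 50 libraries the same difference had an adjusted p of 0.201. The mean of the e1370 doubles exceeded WT by 0.59 ± 0.19 and did not pass (edgeR adjusted p = 0.159), and their libraries, at 277 to 494 CPM, overlapped the WT range. Without the 4 libraries numbered 0 and 1 it was 0.86 ± 0.16 (edgeR adjusted p = 0.00209).

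In the glp-1 strains msra-1 was both high and widely spread. glp-1(e2141) libraries 0 to 4 held 144, 568, 722, 1365 and 765 CPM. The mg54 double held 1021, 837, 590.4, 842 and 1681 CPM, and the mu86 double held 1532, 1323, 905, 316 and 816 CPM. The 3 ranges overlapped, and neither comparison with a double passed, at −0.41 ± 0.46 (edgeR adjusted p = 0.751) and −0.44 ± 0.46 (edgeR adjusted p = 0.746). Leaving out 1 library moved the first from −0.73 to −0.14 and the second from −0.77 to −0.18, with the value nearest to 0 in both when glp-1(e2141) replicate 0, at 144 CPM, was left out and the value farthest from 0 in both without replicate 3, at 1365 CPM. The 95% intervals were −1.38 to 0.57 and −1.42 to 0.54. The daf-16 effect in e1370 was more negative than that in glp-1(e2141) by −1.97 ± 0.40 (edgeR adjusted p = 0.000695), while the effects in e1368 and glp-1(e2141) differed by −0.18 ± 0.39 (edgeR adjusted p = 0.939). In each glp-1 strain the library lowest for msra-1 was also the lowest in summed intestinal, body wall muscle and pharyngeal markers. These markers were at 3026, 2269.9 and 23.2 CPM in glp-1(e2141) replicate 0, 3728, 2283 and 52.1 CPM in mg54 double replicate 2, and 2960.1, 1513 and 27.9 CPM in mu86 double replicate 3. Pharyngeal markers reached 153 CPM in another library of glp-1(e2141), 227 CPM in one of the mg54 double and 215 CPM in one of the mu86 double. The library highest for msra-1 held 4460.1, 2623 and 72.5 CPM of the 3 lists in glp-1(e2141), below other libraries of that strain, and 6929.6, 4517 and 205 CPM in the mu86 double, next to its highest. Their part in the msra-1 spread was not tested. As a description of spread, the SD of log2 CPM within strains was 0.89 for msra-1 in the glp-1 family, and 95.9% of 10391 tested entries had less. In the daf-2 family it was 0.38, and 59.1% of 11774 entries had less.

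Ordered by their mean msra-1 level, the strains ran from daf-2(e1370) at 71.2 CPM through WT at 257, daf-2(e1368) at 337, the mu86 and mg54 doubles of e1370 at 389 and 396, the mu86 and mg54 doubles of e1368 at 487 and 572, and glp-1(e2141) at 713, to its mu86 and mg54 doubles at 978 and 994 CPM. Each strain's range overlapped that of its neighbour in this order, except between daf-2(e1370) and WT.

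The msra-1 entry shares its span with another entry, CELE_F43E2.9,insc-1. In the WBcel235 annotation msra-1 lies on the minus strand and overlaps 41 bases of insc-1, which lies on the plus strand. The sources used here do not state a strand setting for the kit, so reads in the overlap cannot be told apart. The neighbouring entry averaged 34.6 ± 5.54 CPM in WT and 11.9 ± 1.57 CPM in daf-2(e1370) (SD, n = 5). It moved with msra-1, at −1.88 ± 0.21 and −1.90 ± 0.21 against the mg54 and mu86 doubles of e1370 (edgeR adjusted p = 4.32e-08 and 2.9e-08). Over the 35 libraries of the daf-2 family the log2 levels of both entries correlated with r = 0.97, and over the 15 of the glp-1 family with r = 0.99. How reads were divided between them was not tested.

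The thioredoxin reductases supply the relay. trxr-1 (chromosome IV, 7011575 to 7016632 on ce10), the cytosolic selenoprotein of the worm, was even across strains within each family. WT libraries held 181, 185, 172, 201 and 195 CPM, and daf-2(e1370) libraries held 201, 206, 177, 173 and 179 CPM. The ranges overlapped, with a difference of 0.05 ± 0.07 (95% interval −0.08 to 0.19, edgeR adjusted p = 0.663). Strain means of trxr-1 lay between 179 and 199 CPM in the daf-2 family and between 139 and 147 CPM in the glp-1 family. Against both doubles of e1370, e1368 and glp-1(e2141) its 6 differences ran from −0.04 to 0.13, and none was called. Libraries 0 and 1 of the e1370 doubles, at 208 to 222 CPM, stood above the other 6, at 161 to 177 CPM. Without those 4 libraries trxr-1 was 0.21 ± 0.06 higher in daf-2(e1370) than in the mu86 double (edgeR adjusted p = 0.0182), against 0.10 ± 0.07 with them (edgeR adjusted p = 0.292).

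trxr-2 (chromosome III, 8913701 to 8916275 on ce10), the mitochondrial thioredoxin reductase, was low in all strains. WT libraries held 11.4, 12.6, 12.5, 13.7 and 12.9 CPM, and daf-2(e1370) libraries held 18.3, 15.8, 13.8, 14.9 and 14.8 CPM. Every daf-2(e1370) library lay above every WT library, the nearest by a small margin. That nearest one was the shallow replicate 2, at 13.8 CPM against 13.7 CPM in the highest WT library. Only 31 fragments were counted there, so the lack of overlap is uncertain. trxr-2 rose in daf-2(e1370) by 0.36 ± 0.11, 1.28-fold (edgeR adjusted p = 0.0157). The call was lost without WT replicate 0 (0.31, adjusted p = 0.071), WT replicate 1 (0.33, adjusted p = 0.0513) or daf-2(e1370) replicate 0 (0.30, adjusted p = 0.0548), and in a fit of all 50 libraries (0.31, adjusted p = 0.123). It did not separate daf-2(e1370) from its doubles, at 0.02 ± 0.11 against mg54 (95% interval −0.20 to 0.23) and 0.18 ± 0.11 against mu86 (95% interval −0.03 to 0.39). In WBcel235 this gene overlaps 109 bases of cdc-25.3 on the other strand. In the glp-1 family trxr-2 strain means were 7.95 to 8.87 CPM.

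Of the thioredoxins, trx-2 (chromosome V, 10314608 to 10332095 on ce10, a span carried by 5 entries) is mitochondrial and overlaps 47 bases of asps-1 on the other strand. WT libraries held 43.2, 44.1, 46.8, 44.1 and 48.3 CPM, and daf-2(e1370) libraries held 45.3, 45.1, 23.6, 43.6 and 46.2 CPM. The value that stood apart, 23.6 CPM, came from the shallow replicate 2, where 53 fragments were counted. trx-2 differed from WT by −0.08 ± 0.11 in daf-2(e1370) (95% interval −0.30 to 0.15, edgeR adjusted p = 0.712). Its differences from the 6 daf-16 doubles ran from −0.03 to 0.20 with none called, and its strain means were 40.8 to 48.9 CPM in the daf-2 family and 39.3 to 43.0 CPM in the glp-1 family.

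trx-1, the thioredoxin known from the ASJ sensory neurons, was barely detected in whole animals. Its entry (chromosome II, 7724355 to 7753486 on ce10) was at 0 in 19 of 50 libraries and held 1 to 9 fragments in the other 31. A count of 0 allows up to 3 fragments in a library, which is 0.0873 to 0.190 CPM in those 19. glp-1(e2141) libraries held 6, 5, 2, 8 and 3 fragments, and WT libraries held 1, 0, 0, 1 and 1. The gene did not pass the filter on low counts in any fit, so no difference was tested. The 6 markers of ASJ and other ciliated sensory neurons that have their own entries summed to 0.861 to 7.12 CPM in the daf-2 family and to 4.36 to 8.61 CPM in the glp-1 family. trx-1 overlaps 95 bases of cpna-2 on the other strand in WBcel235.

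Among the peroxiredoxins only prdx-6, of the class with a single catalytic cysteine, has its own entry (chromosome IV, 218566 to 220769 on ce10). WT libraries held 47.8, 52.0, 42.7, 41.5 and 46.8 CPM, daf-2(e1370) libraries 39.5, 43.2, 30.3, 39.1 and 47.5 CPM, and mg54 doubles of e1370 58.5, 53.9, 40.4, 46.4 and 50.4 CPM. All 3 ranges overlapped. Against WT the difference was −0.14 ± 0.10 (edgeR adjusted p = 0.355), against the mg54 double −0.21 ± 0.10 (edgeR adjusted p = 0.119) and against the mu86 double −0.12 ± 0.10 (edgeR adjusted p = 0.442). The mg54 difference passed without daf-2(e1370) replicate 4 (−0.29 ± 0.11, adjusted p = 0.049). The lowest daf-2(e1370) value, 30.3 CPM, came from the shallow replicate 2, where 68 fragments were counted. Leaving out 1 library gave −0.29 to −0.12 against mg54 and −0.23 to −0.06 against WT. The highest edgeR adjusted p, 0.355 and 0.733, came in both without that shallow library. prdx-6 strain means were 39.9 to 49.9 CPM in the 7 strains of the daf-2 family and 16.2 to 17.1 CPM in the 3 glp-1 strains, and the highest glp-1 family library, 21.7 CPM, lay below the lowest of the daf-2 family, 30.3 CPM. These families differ in temperature, germline, glp-1 allele and library depth together, which cannot be told apart here.

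prdx-2, the main cytosolic peroxiredoxin, is counted only with pkc-3, which encodes an atypical protein kinase C, in 1 entry (chromosome II, 5377778 to 5387300 on ce10). That entry stood at 764 ± 77.6 CPM in WT and 734 ± 66.9 CPM in daf-2(e1370) (SD, n = 5), with overlapping ranges and a difference of −0.01 ± 0.08 (edgeR adjusted p = 0.962). Its strain means were 734 to 839 CPM in the daf-2 family and 963 to 1071 CPM in the glp-1 family, and none of the 8 comparisons with WT or a daf-16 double was called. A change in either gene alone could be hidden in this sum. prdx-3, the mitochondrial peroxiredoxin, is counted only with rnp-4 and snfc-5 (chromosome III, 4332912 to 4546274 on ce10, a span carried by 57 entries). This entry was listed at 0 in 30 libraries, all those of WT, daf-2(e1368) and the 4 daf-2 doubles, and at 348 to 506 CPM in the 5 of daf-2(e1370). The whole span was at 0 in the same libraries, so it was treated as not estimated in the daf-2 family and no difference is drawn. In the glp-1 family it held 308 ± 21.4 CPM in glp-1(e2141) (SD, n = 5), and the differences from the mg54 and mu86 doubles were 0.17 ± 0.06 and 0.14 ± 0.06 (edgeR adjusted p = 0.192 and 0.313).

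**Figure D2:**
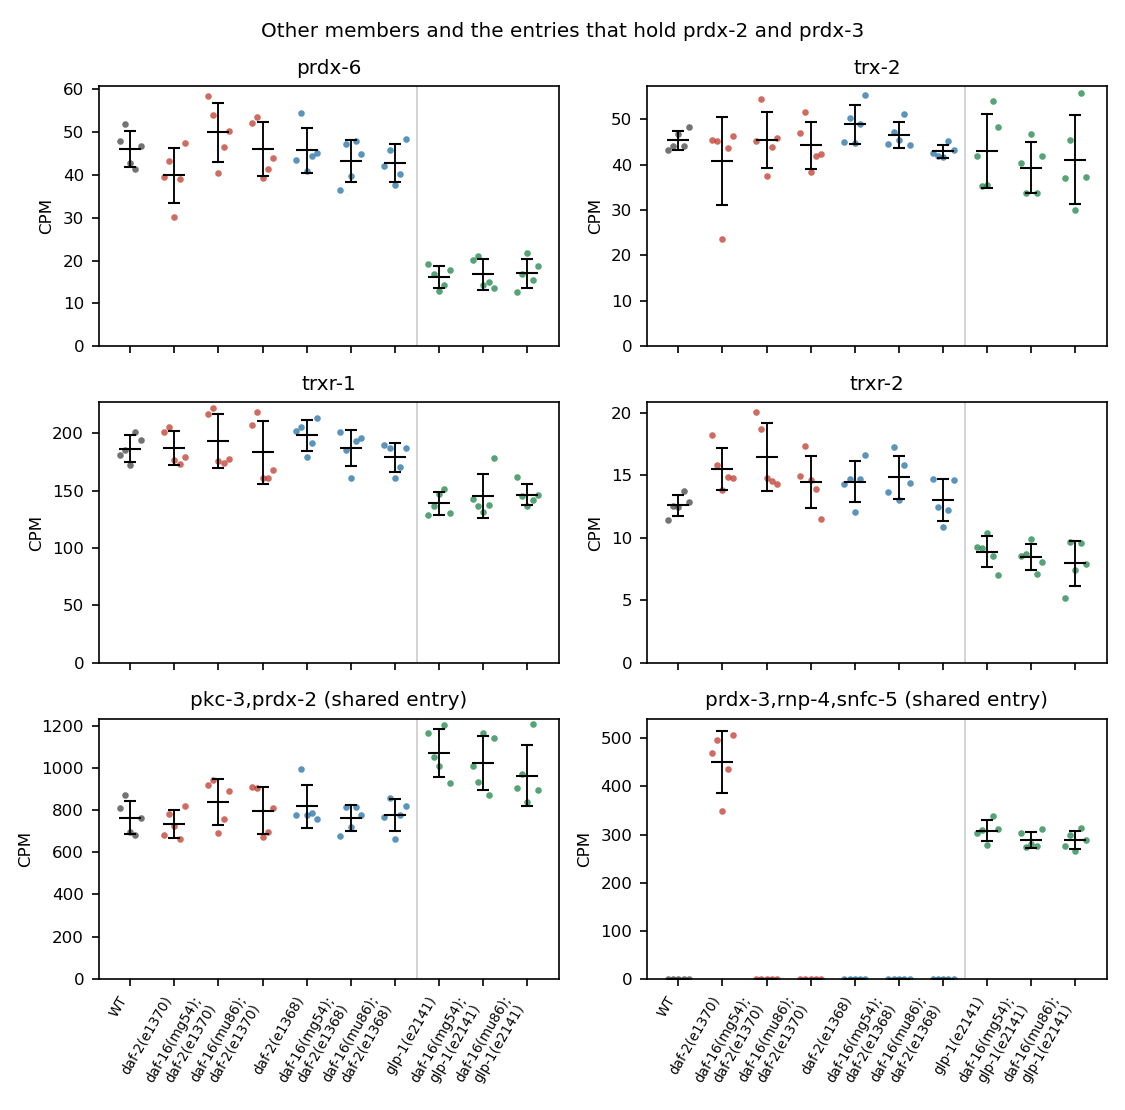
CPM by strain for prdx-6, trx-2, trxr-1, trxr-2 and the entries that hold prdx-2 and prdx-3, with libraries 0 to 4 as points from left to right and the mean and SD of 5 as bars. The prdx-6 points of the glp-1 strains (12.8 to 21.7 CPM) lie below the others, and the prdx-3 entry is at 0 in 6 strains.

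Counted over the members, 5 could be tested. In daf-2(e1370) against WT 1 was called higher (trxr-2) and 1 lower (msra-1), where 18.2% of all 11774 entries were called, 9.84% higher and 8.40% lower. Against the mg54 double of e1370 1 of 5, msra-1, was called lower, where 22.3% of entries were called and 10.4% were lower. Against the mu86 double 1 of 5, again msra-1, was called lower, beside 21.5% of entries called and 10.3% lower. In daf-2(e1368) msra-1 alone was called against mg54, where 2.83% of entries were called and 1.13% were lower. In that comparison 333 entries were called, and 696 when libraries were blocked by replicate number. edgeR and DESeq2 called 0 of 5 in e1368 against WT (2.06% of entries called by edgeR) and 0 of 5 against the mu86 double (4.24%), while 0 and 2 members had an unadjusted p under 0.05. In glp-1(e2141) edgeR and DESeq2 called 0 of 5 against either double, and 0 had an unadjusted p under 0.05, where edgeR called 3.04% and 3.10% of 10391 entries.

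In the comparisons between backgrounds msra-1 was again the member called. It was the 1 of 5 called between the daf-2 alleles (8.43% of entries), in the e1368 doubles against WT (0.425%), and in the tests of daf-16 effects between e1370 and e1368 (4.71%) and between e1370 and glp-1(e2141) (7.24% of 12340). edgeR and DESeq2 called 0 of 5 between the daf-16 effects of e1368 and glp-1(e2141) (0.867% of entries), with 0 at an unadjusted p under 0.05. Both called 0 of 5 in the e1370 doubles against WT (1.30%), with 2 at an unadjusted p under 0.05, and 0 of 5 between the e1370 and e1368 doubles (1.45%), with 1. The mg54 and mu86 doubles were compared in the e1370, e1368 and glp-1 backgrounds, where 0.204%, 0.0934% and 0.0192% of entries were called. In e1370 these were 24 entries, and 56 when blocked by replicate number. edgeR and DESeq2 called 0 of 5 members each time, with 0 at an unadjusted p under 0.05. The median absolute log2 difference of the 5 members was 0.05 against the mg54 double of e1370 and 0.12 against the mu86 double, beside 0.29 and 0.27 over all entries tested. It was above that of all entries in the e1368 doubles against WT (0.10 beside 0.07) and between the e1370 and e1368 doubles (0.12 beside 0.11). The same held between the mg54 and mu86 doubles of e1368 (0.11 beside 0.09). In the other comparisons it was below.

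**Figure D3:**
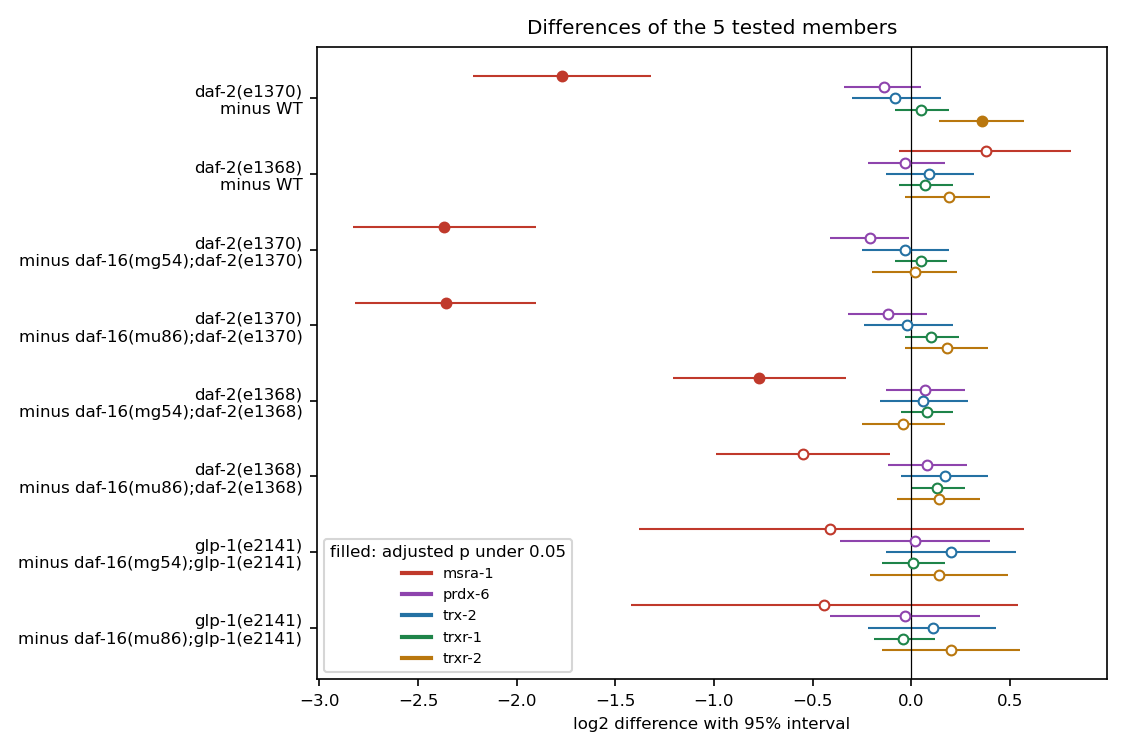
Log2 differences of the 5 tested members with 95% intervals in 8 comparisons, filled where the adjusted p was under 0.05. msra-1 reaches −2.37 and −2.36 against the e1370 doubles, while the other 4 members stay between −0.21 and 0.36.

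Per kilobase of annotated exon in WBcel235, a scale on which genes can be set side by side, msra-1 led the tested members in WT with 373 ± 76.4 CPM per kb (SD, n = 5). trx-2 followed with 86.8 ± 4.14, trxr-1 with 70.3 ± 4.32, prdx-6 with 57.9 ± 5.27 and trxr-2 with 7.74 ± 0.508 CPM per kb. In daf-2(e1370) msra-1 stood at 103.6 ± 34.04 CPM per kb, still the highest mean of the 5, and trx-2 at 78.1 ± 18.5. In glp-1(e2141) msra-1 reached 1036 ± 639 CPM per kb while trxr-2 was at 5.44 ± 0.759.

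Genes most like each member were found by the Pearson r of log2 CPM over the 35 libraries of the daf-2 family, among entries that name a single gene. This leaves out the entry CELE_F43E2.9,insc-1, whose r with msra-1 was higher (0.97, and 0.99 without the shallow library). These libraries share strains and preparation, so r describes shared pattern and has no test. Nearest to msra-1 were srr-4 (0.94), a serpentine receptor gene, clec-47 (0.93), a C-type lectin gene, and fbxa-72 (0.93), an F-box gene. Without the shallow library the first was mtrr-1 (0.94), methionine synthase reductase, followed by srr-4 and fbxa-72. The nearest to prdx-6 were CELE_C25A1.4 (0.92), rab-8 (0.91) and CELE_F32A11.1 (0.91), and to trxr-1 sna-2 (0.91), hex-4 (0.91) and csn-1 (0.90). The nearest to trxr-2, at lower values, were T10B11.2 (0.78), R08D7.4 (0.76) and bath-24 (0.73). trx-2 came nearest to F22H10.2 (0.90), ttr-37 (0.88) and rmo-1 (0.86), and without the shallow library its highest r was 0.75. Against the other 4 tested members msra-1 gave r of 0.21, 0.35, −0.30 and −0.27 for prdx-6, trx-2, trxr-1 and trxr-2. Without the shallow library these were −0.21, −0.27, −0.49 and −0.37, so the positive values for prdx-6 and trx-2 rest on that library.

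The methionine cycle remakes methionine, which is also the product of the msra-1 enzyme. metr-1 encodes methionine synthase and mtrr-1 the reductase that keeps it active. In the glp-1 family both followed msra-1 from library to library, also inside each strain, in a comparison chosen after the data were seen. In each strain the library lowest for both genes was the one lowest in the intestinal, muscle and pharyngeal markers given above, and the part of those markers in the relation was not tested. In glp-1(e2141) mtrr-1 held 42.5, 205, 252, 443 and 202 CPM and metr-1 held 499.7, 1331, 2009.6, 2386 and 1448 CPM. Replicate 0, the lowest for msra-1, was the lowest for both, and replicate 3, the highest for msra-1, was the highest for both. In the mu86 double of glp-1 replicate 3 was lowest for all 3 genes, at 79.1 CPM of mtrr-1 and 866 CPM of metr-1, and in the mg54 double replicate 4 was highest for all 3, at 494 and 3022 CPM. Over the 15 libraries r with msra-1 was 0.98 for each (Spearman rho 0.96 and 0.88 for mtrr-1 and metr-1), 0.93 and 0.89 without the 2 libraries farthest from the msra-1 median, and 0.99 and 0.98 for deviations from strain means. mthf-1, methylenetetrahydrofolate reductase, gave r = 0.84, rho = 0.60 and 0.85 for deviations from strain means, but 0.28 without those 2 libraries, so its r rests on them. Of the other genes listed with the methionine cycle, sams-5, sams-4 and F44E2.6 gave 0.73, 0.10 and −0.62 for deviations from strain means.

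In the daf-2 family mtrr-1 gave r = 0.93 (rho 0.95) and metr-1 0.68 (rho 0.82) over 35 libraries, and 0.54 and 0.45 for deviations from strain means. These libraries are set apart by daf-2(e1370), and the figures within strains are the ones that do not use that gap. They still include the shallow library, and no figure within strains was taken without it. trx-2, whose positive r over the 35 libraries rested on that library, gave 0.47 within strains. Within strains the methionine cycle genes mthf-1 (0.65) and sams-5 (0.59) followed msra-1 more closely than mtrr-1 and metr-1 did. F44E2.6 gave 0.08 and sams-4 −0.35. Over the 35 libraries mthf-1 gave 0.38 and sams-5 −0.41. mtrr-1 fell in daf-2(e1370) with a mean of 127 ± 12.14 CPM against 166 ± 5.73 CPM in WT (SD, n = 5), a difference of −0.34 ± 0.06 (edgeR adjusted p = 0.000118). It also fell against the doubles, at −0.49 ± 0.06 and −0.44 ± 0.06 for mg54 and mu86 (edgeR adjusted p = 2.81e-07 and 1.64e-06). Like msra-1, mtrr-1 had a more negative daf-16 effect in e1370 than in e1368, by −0.28 ± 0.07 (edgeR adjusted p = 0.025). metr-1 did not pass in any of these, at −0.05 ± 0.12 against WT, −0.31 ± 0.12 against mg54 (edgeR adjusted p = 0.0598) and −0.28 ± 0.12 against mu86 (edgeR adjusted p = 0.101). The gene most opposed to msra-1 over the 35 libraries, chosen after the values were seen, was mmcm-1, methylmalonyl-CoA mutase, with r = −0.92 (−0.80 within strains) and −0.67 in the glp-1 family. Without the shallow library CELE_F57C2.5 (−0.90) came before mmcm-1 (−0.89).

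**Figure D4:**
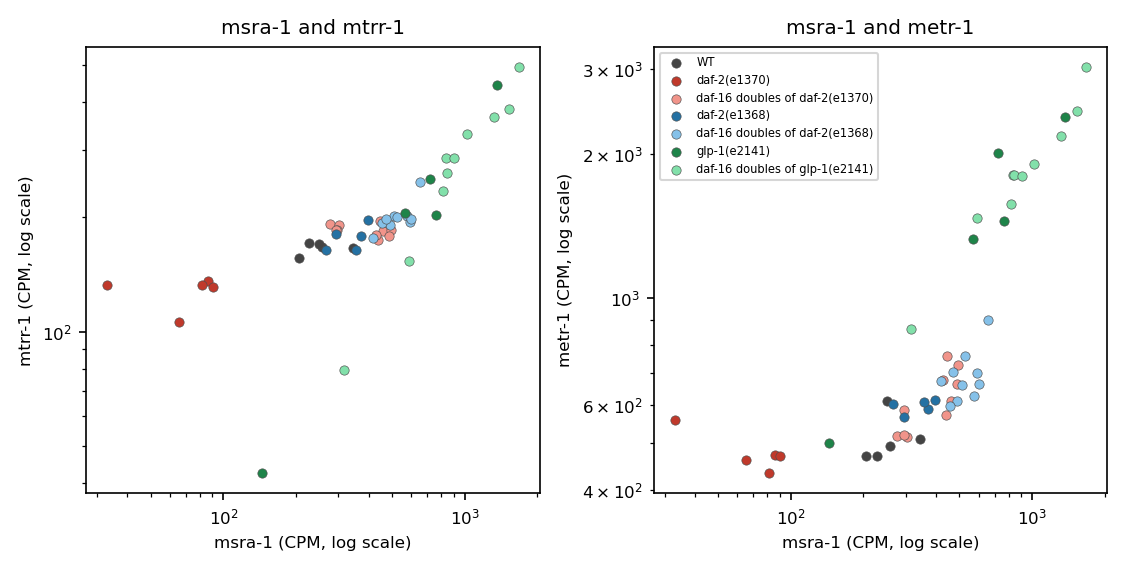
CPM of mtrr-1 and metr-1 against msra-1 in 50 libraries, both axes log scaled, coloured by background. In the glp-1 libraries (green) both genes climb with msra-1 from 144 to 1681 CPM, while daf-2(e1370) (dark red) sits at the low msra-1 end with 106 to 136 CPM of mtrr-1.

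The wider redox and methionine lists held 59 genes in 6 groups, of which 37 have their own entry and 36 were tested in the daf-2 family. They were written with earlier results of these data known. Against the mg54 double of e1370 5 rose and 5 fell (median log2 difference −0.04), and against mu86 5 rose and 4 fell (median −0.04), beside 22.3% and 21.5% of entries called either way. Genes called the same way against both doubles are given next by group, as mg54 and then mu86 differences.

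Of 10 tested glutathione and glutaredoxin genes, 3 rose against both doubles, all named as glutathione peroxidase genes. gpx-6 rose by 1.46 ± 0.30 and 1.24 ± 0.30, gpx-7 by 0.97 ± 0.12 and 0.98 ± 0.12, and gpx-4 by 0.97 ± 0.19 and 0.53 ± 0.18. glrx-5, a glutaredoxin gene, fell against mg54 (−0.28) and did not pass against mu86 (−0.21). gsr-1, glutathione reductase, did not pass, at −0.16 and −0.11. Of 6 NADPH supply genes 1 rose: nnt-1, the mitochondrial transhydrogenase that makes NADPH from NADH, at 2.05 ± 0.18 and 2.19 ± 0.19 (edgeR adjusted p = 3.11e-10 and 7.37e-11). Of 9 tested genes of other thioredoxin-fold proteins 2 fell: txdc-12.1 at −0.89 ± 0.26 and −0.77 ± 0.26, and txl-1, a thioredoxin-like gene, at −0.46 ± 0.11 and −0.40 ± 0.11. Of 5 genes of SKN-1 and peroxide signalling 1 fell, the sestrin gene sesn-1, at −0.52 ± 0.16 and −0.59 ± 0.16. Of 6 tested genes listed with the methionine cycle mtrr-1 fell, and sams-5, an S-adenosylmethionine synthetase gene, rose by 2.60 ± 0.51 and 2.14 ± 0.50. sams-5 has close paralogs, so its count is uncertain. The 4 genes of selenocysteine insertion, which trxr-1 requires, occur only in shared entries and were not tested.

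**Figure D5:**
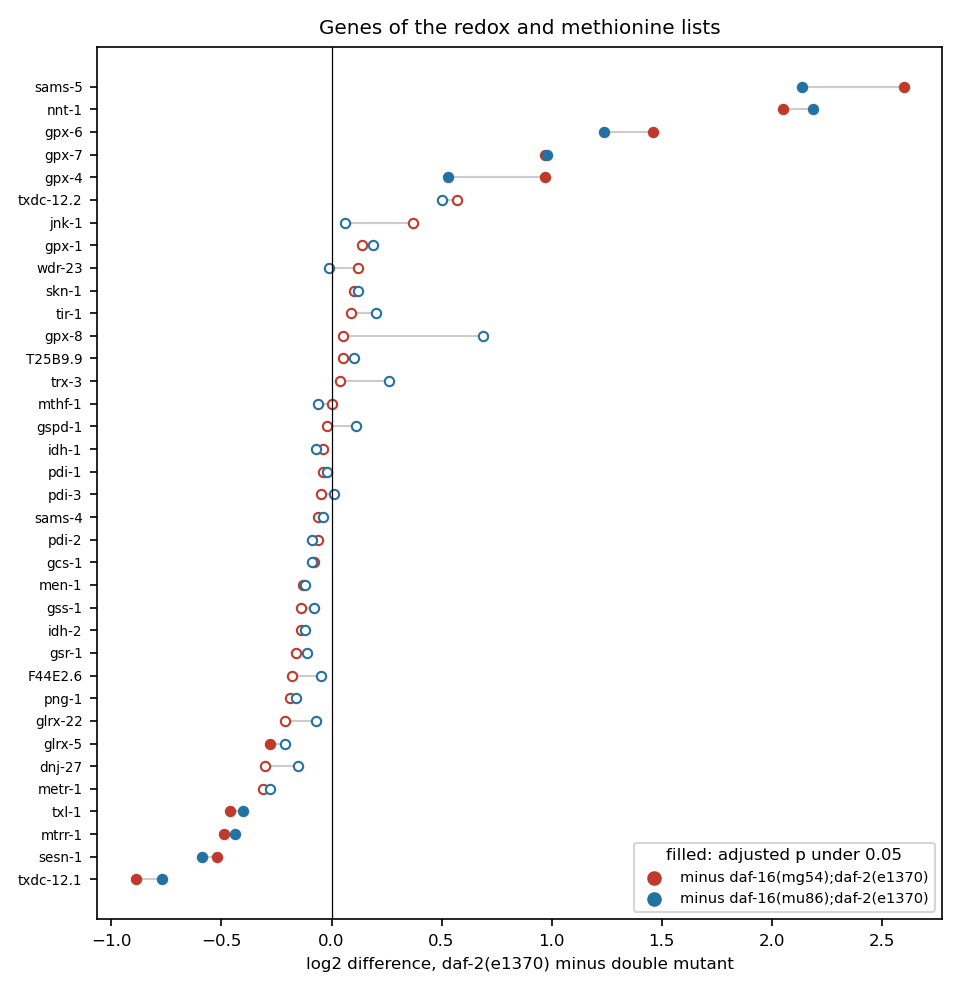
Log2 differences of 36 genes from the redox and methionine lists, daf-2(e1370) minus its mg54 double (red) and mu86 double (blue), filled where the adjusted p was under 0.05. sams-5, nnt-1 and 3 glutathione peroxidase genes lie to the right, and txdc-12.1, sesn-1, mtrr-1 and txl-1 to the left.

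In daf-2(e1368) and glp-1(e2141) few of the list genes were called, and few entries overall. In daf-2(e1368) 1 of 36 genes fell against mg54, mtrr-1 (−0.25 ± 0.06, edgeR adjusted p = 0.0173). Of all entries, 2.83% were called there and 1.13% were lower. Against mu86 (4.24% of entries called either way) gpx-7 rose by 0.69 and sesn-1 fell by 0.56. In glp-1(e2141) gpx-7 rose by 0.66 against mg54 (3.04% of entries) and stood at 0.57 against mu86 (3.10%), which did not pass, and dnj-27, an endoplasmic reticulum disulfide reductase, fell by 0.49 against mg54. nnt-1, at 0.12 and 0.43 in e1368 and 0.54 and 0.39 in glp-1(e2141), did not pass there.

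Markers of other cell types moved with daf-2(e1370) in a few cases. Against both doubles 2 of 4 tested intestinal markers and 2 of 8 neuronal markers were called higher. Of all entries, 22.3% were called either way against mg54, with 10.4% lower and the rest higher. Against mu86 21.5% were called, with 10.3% lower and the rest higher. Against WT 2 of 4 and 1 of 8 were called higher, beside 9.84% of all entries called higher. Against the mu86 double 1 of 4 body wall muscle markers and 1 of 2 ciliated neuron markers were also called higher, and 1 of 10 oogenic markers lower. Summed intestinal markers, 4 with their own entry, ran from 1659 to 3506 CPM in daf-2(e1370), 1840.0 to 3041 CPM in WT and 2284 to 3697 CPM in the e1370 doubles. Summed neuronal markers, 9 with their own entry, ran from 114 to 191 CPM in daf-2(e1370) and 63.3 to 128 CPM in its doubles. The 5 pharyngeal markers ran from 10.2 to 61.0 CPM in daf-2(e1370), 47.5 to 78.0 CPM in WT and 8.94 to 85.1 CPM in the e1370 doubles. Of these 4 could be tested, with median log2 differences of −1.02 against WT, −0.54 against mg54 and −1.02 against mu86 and no gene called by edgeR. The 11 oogenic markers ran from 5511 to 9452 CPM in daf-2(e1370) and 5388 to 9860 CPM in its doubles. In the glp-1 family intestinal markers ran from 2960.1 to 7561 CPM. The part of these markers in the msra-1 difference was not tested.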

How the data were processed

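The authors deposited 1 table of estimated counts per gene entry and library, with 0 columns of other samples. Per the submitters' processing notes, the tools were Cuffdiff 2.1.1, Cufflinks, TopHat2 2.0.9, Bowtie2 2.1.0, cutadapt and FastQC 0.10.1, and the build ce10; no role is stated. Since 72.2% of non-zero values were whole (tolerance 0.02), counts were rounded before fitting. The 314 entries naming no gene (0.187% to 0.48% of fragments) were left out, and repeats of a name at one locus were added up, leaving 33458. A locus was treated as not estimated where a strain was at 0 throughout while another strain of its family averaged at least 1000 fragments (10 loci in the daf-2 family, 1 in the glp-1 family).

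Each family was fitted alone, and comparisons across families on all 50 libraries (12340 entries tested), with edgeR 4.0.16 in R 4.3.3 (TMM, filterByExpr, robust quasi-likelihood, strain as the only term) and Benjamini-Hochberg adjustment over all entries. Levels use TMM over all 50 libraries. DESeq2 1.42.0 was an alternative, and the fit was tested on simulated data. The simulation gave all entries the same setting of spread and did not link libraries of the same number. It therefore cannot check the fit where such libraries deviate together. Groups and replicate numbers 0 to 4 come from the labels. Nothing says that a number marks a shared batch. Same-numbered libraries deviated together, with all 5 correlations over 0.1, in 2 of 24 pairs of strains: daf-2(e1368) with its mg54 double, and the mg54 with the mu86 double of daf-2(e1370). No call of a member changed under the block in those 2. Other pairs were partly alike by number. daf-2(e1368) and its mu86 double gave 0.40, 0.66, 0.73, 0.27 and 0.07 for numbers 0 to 4. There 5 of 5 daf-2(e1368) libraries correlated best with their own number, as did 4 of 5 daf-2(e1370) libraries with either double. The glp-1 pairs gave 1, 0 and 0. The main fits do not use this pairing. The p-values measure only the spread between these libraries, which may be technical. Members, lists and tests were chosen with earlier results of these data known. The rule for naming genes covered the members, the 3 entries most like each, and list genes called the same way against both doubles of a background, at most 3 a list. Some genes outside this rule are also named, among them glrx-5, gsr-1, dnj-27, mmcm-1 and genes listed with the methionine cycle.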

Additional observations from a re-analysis of the deposited data

Results flagged for a closer look

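The difference of daf-16 effects for msra-1 passed its test between daf-2(e1370) and daf-2(e1368), at −1.70 ± 0.27 (edgeR adjusted p = 8.67e-05), and between daf-2(e1370) and glp-1(e2141), at −1.97 ± 0.40 (edgeR adjusted p = 0.000695). Both tests share the daf-2(e1370) libraries.

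Of 64 sets of 5 libraries examined for a library that stands apart, 3 had one, where chance gives about 5% of sets. trx-2 was lowest in daf-2(e1370) replicate 2, at 23.6 CPM, the library of 2367903 fragments. The pkc-3,prdx-2 entry was highest in daf-2(e1368) replicate 1, at 996 CPM, and trxr-1 in daf-16(mg54);glp-1(e2141) replicate 4, at 179 CPM.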

How the results depend on the processing

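Among refits of single entries, 2370 kept their direction and side of the threshold, 16 lost a call and 8 gained one, and no called difference reversed. The number of members called in daf-2(e1370) minus WT was 1 in a fit of all 50 libraries, against 2, and 1 to 2 without any 1 library. Against the mg54 double of e1370 it was 2 with the replicate block, against 1, and 1 to 2 without any 1 library. Against the mu86 double it was 2 without the 4 libraries numbered 0 and 1. In e1368 it was 0 against mg54 with no filter on low counts and in the fit of all 50 libraries, 0 to 1 without any 1 library, and 1 against mu86 with only the strains compared. The e1370 doubles minus WT gave 1 with the block and 1 without the 4 libraries, the e1368 doubles minus WT gave 0 in the fit of all 50, and e1370 doubles minus e1368 doubles gave 1 with the block. The cause was not tested.

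With the replicate block, msra-1 passed in e1370 doubles minus WT (0.58, adjusted p = 0.0438) and in e1370 minus e1368 doubles (−0.46, adjusted p = 0.0428), and prdx-6 passed against the mg54 double of e1370 (−0.21, adjusted p = 0.0291). The block changed no other call of a member. DESeq2 called the prdx-3 entry in glp-1(e2141) minus its mg54 double (0.17, adjusted p = 0.011). With only the strains compared, msra-1 passed in e1368 minus its mu86 double (−0.55, adjusted p = 0.0384). Over all entries, calls against the mg54 double of e1370 ran from 1014 with only the strains compared to 5347 with the block, against 2621. Against the mu86 double they ran from 1313 to 4107, against 2536. The block also gave 3345 against 2147 in e1370 minus WT, 666 against 243 in e1368 minus WT, 1035 against 499 in e1368 minus its mu86 double, 2962 against 993 between the daf-2 alleles, and 3668 against 555 between the daf-16 effects of e1370 and e1368. In glp-1(e2141) minus mg54 calls ran from 147 with the block to 724 in the fit of all 50 libraries, against 316, and DESeq2 gave 623. Against mu86 they ran from 147 with the block to 603 with DESeq2, against 322. The e1370 doubles minus WT gave 90 without WT replicate 4 to 646 with the block, against 153, the e1368 doubles minus WT gave 28 in the fit of all 50 libraries to 86 with the block, against 50, and e1370 minus e1368 doubles gave 763 with the block, against 171. With loci not estimated kept, calls were 371 in e1368 minus WT, 1561 between the alleles, and 76 and 99 between the mg54 and mu86 doubles of e1370 and e1368, against 24 and 11. The daf-16 effects of e1370 and glp-1(e2141) gave 566 with only the strains compared, against 893, those of e1368 and glp-1(e2141) 57 without glp-1(e2141) replicate 4 to 246 with loci not estimated kept, against 107, and those of e1370 and e1368 gave 348 without daf-2(e1368) replicate 1. The glp-1 doubles gave 1 with the block to 28 in the fit of all 50 libraries, against 2. A search of promoters for motifs was not run, since no promoter sequence was used here. Depth limits trx-1, at no more than 9 fragments a library.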
